A study of Mus musculus with 5 samples.

Results

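The circadian clock genes described here are Per1, Per2, Per3, Cry1, Cry2, Nr1d1, Nr1d2, Dbp, Tef and Clock, 10 of the 20365 gene names in the tables. They were found by name, and each was represented by its 3′ UTR interval with the highest mean deposited CPM in the labeled libraries. Cardiac fibroblasts (CF) came from hearts of healthy adult male wildtype C57Bl/6J mice, were depleted of CD31+ and CD45+ cells with magnetic beads and were grown to confluency. The labeled group (n = 3 libraries) was given 0.1 mM 4-thiouridine (S4U) for 12 h, an analog of uridine that enters new RNA. The unlabeled group (n = 2 libraries) was kept in parallel for the same 12 h without S4U. RNA of both groups was alkylated, so that incorporated S4U is read as C in place of T, and the T>C conversion rate is the fraction of covered T positions read as C. No source used here gives the time of day of isolation or harvest, a synchronising step, or which labeled and unlabeled libraries share a preparation. The study's methods give 3 CF preparations for SLAMseq but do not assign them to the libraries. If a labeled and an unlabeled library share a preparation, the main tests, run without pairing, keep the spread between preparations in their error. If libraries within a group share one, p-values measure in part technical spread.

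The circadian clock is a feedback loop of transcription that runs in most cells, CF included. CLOCK and its partner BMAL1, or NPAS2 in place of CLOCK, bind E-boxes and activate the Per and Cry genes, whose proteins return to the nucleus and repress CLOCK and BMAL1. NR1D1 and NR1D2 (REV-ERBα and REV-ERBβ) are nuclear receptors that repress Bmal1 through RORE sites, and DBP and TEF are PAR bZIP activators that bind D-boxes in output genes and in Per genes. Fibroblasts in culture each keep their own rhythm, the phases drift apart unless cells are synchronised, and a change of serum or medium can align them again.

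The libraries were shallow, with 506045 to 1843033 reads counted on 1 interval per gene. Levels are given as CPM relative to counted reads, which is the reads of an interval scaled to the sum of reads on all these intervals. The 3′ end libraries sample each transcript near its poly(A) tail, so levels were not divided by length. Fibroblast markers summed to between 31512 and 42725 CPM relative to counted reads, with all 10 of 10 detected. Endothelial markers summed to between 113 and 223, macrophage and leukocyte markers to between 35.8 and 73.6, and cardiomyocyte markers to between 1.27 and 8.03. Low sums were also found for smooth muscle and pericyte markers (4.02 to 13.8), epicardial and mesothelial markers (0.543 to 5.93) and Schwann cell markers (1.98 to 6.69). At 0 reads in all 5 libraries were Cd3e and Cd79a, 2 of the 7 macrophage and leukocyte markers, Msln, 1 of 3 epicardial and mesothelial markers, and Sox10, 1 of 3 Schwann cell markers.

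All 10 intervals lie in the last exon of their gene, in the 3′ UTR (mm39, starts counted from 1). On the plus strand these were Per1 at chr11:69000186-69000791, Nr1d2 at chr14:4263012-4265640, Dbp at chr7:45359305-45359627 and Tef at chr15:81707883-81711064. On the minus strand they were Per2 at chr1:91343699-91345592, Per3 at chr4:151088112-151090332, Cry1 at chr10:84967564-84968171, Cry2 at chr2:92233991-92236165, Nr1d1 at chr11:98658758-98659045 and Clock at chr5:76357715-76364545. On the opposite strand the annotation places Thra over the Nr1d1 interval, Sphk2 over that of Dbp, Tmem165 over that of Clock and a long noncoding RNA over that of Tef. The counts keep the strands apart, since the Sphk2 interval (chr7:45358887-45360148) contains that of Dbp and yet held 12 reads against 46 for Dbp in labeled replicate 1 and 18 against 55 in unlabeled replicate 1. Per1, Per2, Per3 and Nr1d2 have further listed intervals with the same reads as the one used (3, 1, 1 and 1), and those of Dbp share all but 1 of 161 reads.

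The promoters of the members are shown for the elements through which the proteins of the loop act on each other's genes. The RefSeq table used (GRCm38.p6, a build other than that of the intervals) holds windows from 250 bases before to 50 after the start for 9 of the 10 members, Per2 being the one without, and 13 windows in all. The motifs searched on both strands were the E-box CACGTG, the D-box TTATNTAA, the RORE NAANTNGGTCA and the cAMP response element TGACGTCA. Of 32851 promoter windows, 7.15% hold the E-box, 3.51% the D-box, 0.606% the RORE and 1.79% the cAMP response element. The E-box letters were found in 4 windows of 3 members, Cry1, Per1 and Tef, and the D-box letters in 2 members, Per3 and Tef. No 2 of these matches overlap, and the other 2 motifs were in no member's window. Each match is printed below within 30 bases, 5′ to 3′ on the strand of the gene, with the motif in capitals.
Cry1 E-box, position -60, chr10:85185097-85185126 (-): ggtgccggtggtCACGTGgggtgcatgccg
Per1 E-box, position -166, chr11:69098771-69098800 (+): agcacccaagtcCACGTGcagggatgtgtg
Tef E-box, position -127, chr15:81802534-81802563 (+): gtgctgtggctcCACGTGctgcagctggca
Tef E-box, second start, position -138, chr15:81811264-81811293 (+): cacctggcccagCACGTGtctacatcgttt
Tef D-box on the opposite strand, position -174, chr15:81802487-81802516 (+): ccctttgcaaagTTAGATAAcaggccgggt
Per3 D-box, position -205, chr4:151044853-151044882 (-): ccgacccgcgcgTTATGTAAggtactcggg
Per3 D-box, position -158, chr4:151044806-151044835 (-): acccgcccgcggTTATGTAAcccccgccgt
Bmal1, which is no member but the gene that NR1D1 represses, has a RORE at position 26.
Bmal1 RORE, chr7:113207525-113207554 (+): tagggaaggcagAAAGTAGGTCAgggacgg
A match is a description of these letters and not a binding site shown in CF.

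All 10 members were detected in all 5 libraries. Clock had the highest mean level in the labeled libraries with 128 ± 22.8 CPM relative to counted reads (SD, n = 3), followed by Tef with 95.7 ± 36.9 and Nr1d2 with 74.4 ± 20.0. Nr1d1 (28.5 ± 18.2), Dbp (21.8 ± 8.93), Per3 (12.9 ± 8.82) and Cry2 (12.9 ± 5.12) formed a middle group. Per1 (5.61 ± 3.40), Cry1 (4.95 ± 3.04) and Per2 (3.84 ± 1.25) were lowest, with 26 to 48 reads each over all 5 libraries. Clock exceeded Tef in 5 of 5 libraries, Tef exceeded Nr1d2 in 4 of 5 and Nr1d2 exceeded Nr1d1 in 5 of 5. Further down, Dbp exceeded Per3 in 4 of 5 libraries. The other neighbours could not be ranked, since Nr1d1 exceeded Dbp in 3 of 5, Per3 exceeded Cry2 in 2, Cry2 exceeded Per1 in 2, Per1 exceeded Cry1 in 3 and Cry1 exceeded Per2 in 2. In a bulk sample, fewer cells of a type and less RNA per cell cannot be told apart.

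**Figure D1:**
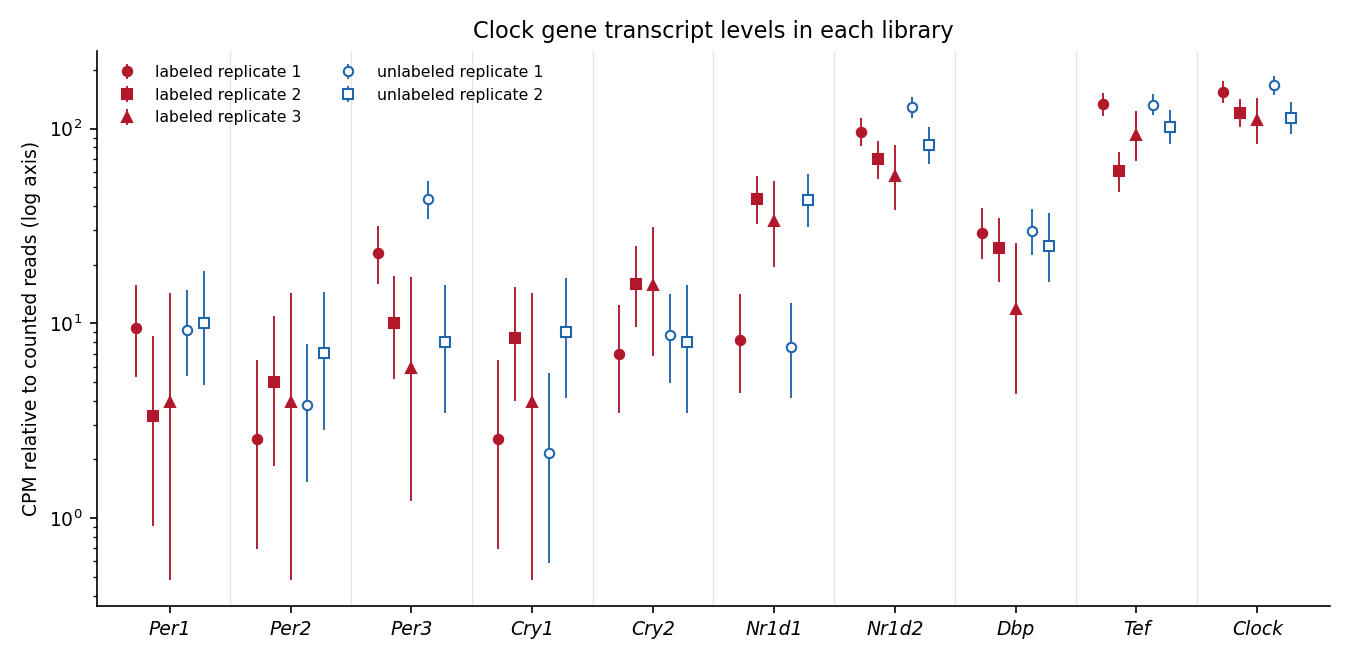
Level of each clock gene in the 3 labeled (filled) and 2 unlabeled (open) libraries, as CPM relative to counted reads on a log axis, with bars for the exact 95% Poisson interval of the reads. Clock, Tef and Nr1d2 lie highest, and the levels of Nr1d1 and Per3 split by replicate number in opposite directions.

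Among the repressors of the negative limb, Per1 had 15, 4 and 2 reads in the labeled libraries (replicates 1, 2 and 3, the order used throughout) against 17 and 10 in the unlabeled ones, or levels of 9.52, 3.35 and 3.95 against 9.22 and 10.04 CPM relative to counted reads. Per2 had 4, 6 and 2 against 7 and 7 reads, or levels of 2.54, 5.02 and 3.95 against 3.80 and 7.03. Both sets of levels overlap between the groups, and the exact 95% Poisson intervals of each gene overlap between all of its libraries. These intervals cover counting error only.

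Per3, a PER paralog that is dispensable for rhythms in mice, varied far more. It had 36, 12 and 3 reads in the labeled libraries and 80 and 8 in the unlabeled ones. The levels were 22.8, 10.04 and 5.93 against 43.4 and 8.03, so both replicate 1 libraries were high and the other 3 were low. The highest library, unlabeled replicate 1, was 7.32-fold above the lowest, labeled replicate 3, the widest range of any member.

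The cryptochromes are the strongest repressors of CLOCK and BMAL1. Cry1 had 4, 10 and 2 labeled and 4 and 9 unlabeled reads, or levels of 2.54, 8.37 and 3.95 against 2.17 and 9.03. Cry1 was thus higher in both replicate 2 libraries than in both replicate 1 libraries, on at most 10 reads each. Cry2 had 11, 19 and 8 labeled and 16 and 8 unlabeled reads, or levels of 6.98, 15.9 and 15.8 against 8.68 and 8.03, with labeled replicates 2 and 3 highest.

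Of the REV-ERB receptors, Nr1d1 showed the clearest split between libraries. It had 13, 52 and 17 reads in the labeled libraries and 14 and 43 in the unlabeled ones. The levels were 8.25, 43.5 and 33.6 CPM relative to counted reads against 7.60 and 43.2. The exact 95% intervals of the replicate 1 libraries (4.39 to 14.1 labeled, 4.15 to 12.7 unlabeled) lie below those of the other 3 libraries, the lowest of which starts at 19.6. Its paralog Nr1d2 went the other way and less far, with 152, 83 and 29 labeled and 237 and 82 unlabeled reads, or levels of 96.4, 69.5 and 57.3 against 129 and 82.3. Within a library, the reads of Nr1d1 relative to those of Nr1d2 were 0.0855 and 0.0591 in labeled and unlabeled replicate 1. They were 0.627 and 0.586 in labeled replicates 2 and 3 and 0.524 in unlabeled replicate 2. This ratio does not depend on the depth of the library.

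The PAR bZIP factors are outputs of the loop. Dbp had 46, 29 and 6 labeled and 55 and 25 unlabeled reads, or levels of 29.2, 24.3 and 11.9 against 29.8 and 25.1. Dbp thus differed little between replicates 1 and 2 of either group. Tef had 211, 72 and 47 labeled and 245 and 102 unlabeled reads, or levels of 134, 60.3 and 92.9 against 133 and 102, and labeled replicate 2 was lowest. Clock, the activator, had 243, 144 and 56 labeled and 307 and 113 unlabeled reads, or levels of 154, 121 and 111 against 167 and 113. It was the steadiest member, with a 1.51-fold range over the 5 libraries.

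Replicates 1 and 2 exist in both groups, so each gene could be compared between them once with and once without S4U. Nr1d1 was 5.28-fold higher in replicate 2 than in replicate 1 in the labeled group and 5.68-fold higher in the unlabeled group. Cry1 was 3.30-fold and 4.16-fold higher. Per3 was 2.27-fold and 5.40-fold lower. Of the 9 members among the 9807 genes tested for reads, 2 were at least 2-fold higher in replicate 2 in both groups, as were 8.82% of all genes tested. In the same way 1 member was at least 2-fold lower in both groups, against 5.11% of all genes, and Nr1d1 was the 1 member at least 4-fold higher in both, against 1.65%. Per2, which was not among the genes tested, was 1.98-fold and 1.85-fold higher. The members' shares thus rest on 1 or 2 genes each, in libraries whose replicates differed in many genes.

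**Figure D2:**
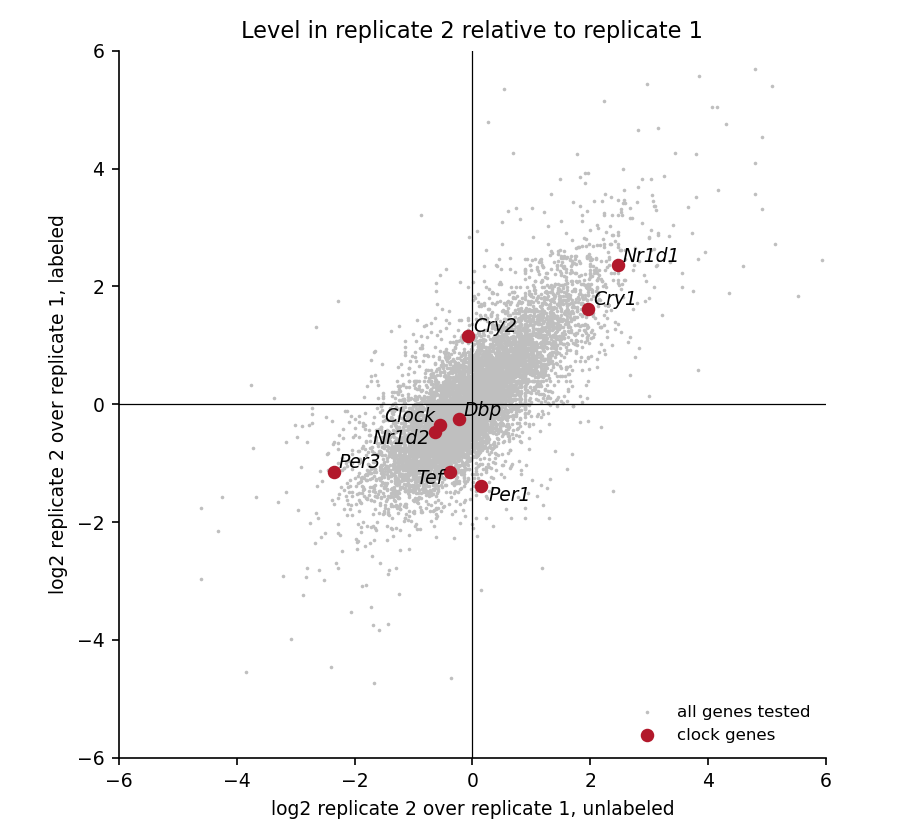
Log2 of the level in replicate 2 over that in replicate 1 in the unlabeled (horizontal) and labeled (vertical) libraries, with 0.5 added to each read count, for the 9807 genes tested (grey) and the 9 clock genes among them (red). Nr1d1 and Cry1 lie at the upper right and Per3 at the lower left, while Dbp, Clock and Nr1d2 lie near the centre.

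The spread of Nr1d1 can be summarised without regard to replicate numbers, from the same differences between libraries. In edgeR its biological coefficient of variation within groups was 0.646, against 0.350 for the trend at its abundance, and exceeded that of 98.1% of the 9807 genes. Per3 (0.564, above 95.7% of genes) and Cry1 (0.534, above 94.4%) followed, and Clock (0.261, above 19.6%) was the least variable member.

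Some transcripts of other cell types were also lowest in the replicate 1 libraries. Lyz2, a lysozyme of macrophages, was at 2.54, 27.6 and 17.8 CPM relative to counted reads in the labeled and 3.26 and 30.1 in the unlabeled libraries. Pecam1, which encodes the endothelial CD31, was at 5.71, 27.6 and 17.8 against 10.9 and 41.2. The summed macrophage and leukocyte markers were at 36.2, 73.6 and 47.4 against 35.8 and 70.3, with 3 of 7 markers higher in replicate 2 in both groups and 2 of 7 at 0 throughout. The summed endothelial markers were at 113, 204 and 117 against 160 and 223, with 3 of 5 higher in replicate 2 in both groups. The summed cardiomyocyte markers were at low levels of 1.27, 7.53 and 5.93 against 1.63 and 8.03, again with 3 of 5. Both replicate 1 libraries were thus lowest in this sum, as for Nr1d1. Of the fibroblast markers 5 of 10 were higher in replicate 2 in both groups. The same held for 1 of 3 epicardial and mesothelial, 1 of 3 Schwann cell and 0 of 4 smooth muscle and pericyte markers. Lyz2 and Pecam1 were singled out after their values were seen, and the endothelial sum in labeled replicate 3, where Nr1d1 was high, lay near that in labeled replicate 1. Thra, read from the other strand, fell into 2 patterns. Its main interval had levels of 124, 58.6 and 75.1 against 114 and 66.3. Another Thra interval, chr11:98659352-98659832, on the other side of the Nr1d1 interval used, had 24.1, 72.8 and 63.2 against 47.2 and 86.3. The replicate 1 libraries were also the deepest, with 1576048 and 1843033 counted reads. The part of cell type markers, of depth and of the neighbouring gene in the Nr1d1 levels was not tested.

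Reads were then compared between labeled and unlabeled libraries, which asks whether the S4U incubation went with other transcript levels. None of the 9 members tested changed at a Benjamini-Hochberg adjusted p below 0.05 in edgeR (quasi-likelihood test), and neither did any other gene (0% of 9807). At an unadjusted p below 0.05, 5.97% of genes but 0 of 9 members passed. DESeq2 called 18 of the 7110 genes to which it gave an adjusted p. These held 5 of the 10 members, of which it called 0, while Per1, Per2, Per3, Cry1 and Cry2 received none. The log2 fold change, labeled over unlabeled, was above 0 in 3 members and below 0 in 6, with a median of -0.21 against 0.02 for all genes tested. The largest were those of Per3 (-0.84, SE 0.73), Cry2 (0.64, SE 0.55) and Per1 (-0.60, SE 0.60). Nr1d2 had -0.41 (SE 0.32) and Nr1d1 0.24 (SE 0.90). Dbp (-0.21, SE 0.40), Tef (-0.22, SE 0.36), Clock (-0.04, SE 0.27) and Cry1 (0.01, SE 0.78) completed the list of 9, and the lowest adjusted p in edgeR was 0.999, for Nr1d2. In no member did the labeled levels lie wholly above or below the unlabeled ones, while 21.3% of the genes tested had levels that did not overlap. Per3 turned to 0.80 without unlabeled replicate 1, and Nr1d1 to -0.61 without that library and to -0.30 without labeled replicate 2. Cry1 was at 1.28 without unlabeled replicate 2. With the library size implied by the deposited CPM, which moved the median of all genes to -0.43, 1 of 9 members was above 0. Per2 was left out by the filter on low counts.

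**Figure D3:**
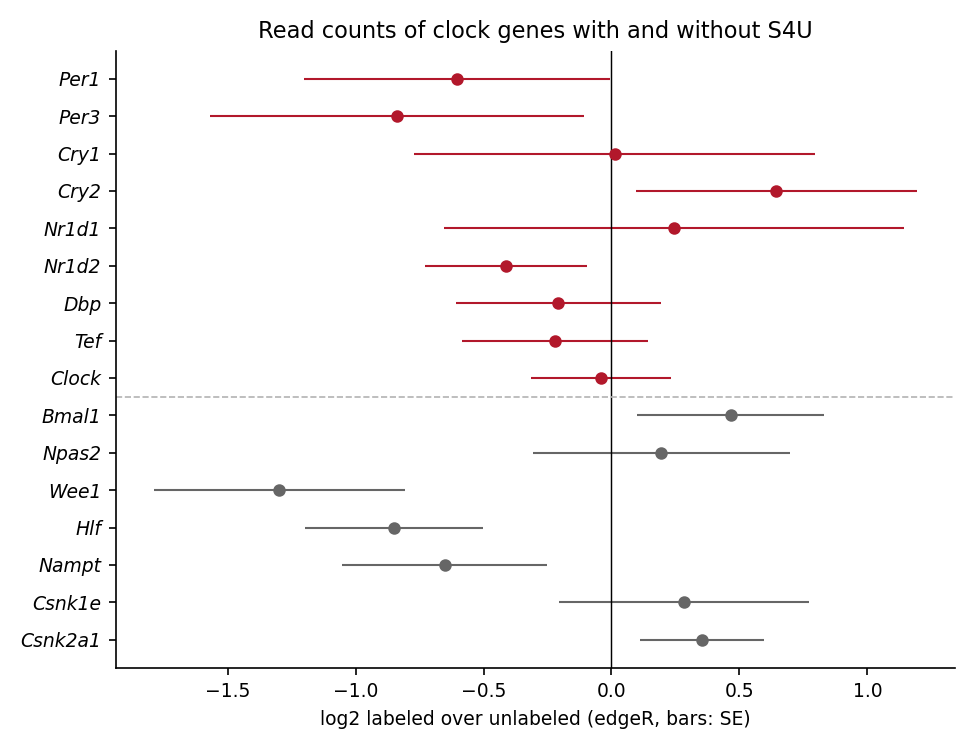
Log2 fold change of reads, labeled over unlabeled, from edgeR with bars of 1 standard error, for the 9 clock genes tested (red) and 7 other genes of the clock (grey). The members lie between -0.84 for Per3 and 0.64 for Cry2, and no gene shown passed the adjusted threshold.

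To set a group of output and feedback genes, without Cry1 and Cry2, against the activators, the reads of Per1, Per2, Per3, Nr1d1, Nr1d2, Dbp and Tef were summed and divided by those of Clock, Bmal1 and Npas2 within each library. The log2 ratio was 0.40, 0.35 and 0.42 in the labeled libraries and 0.68 and 0.86 in the unlabeled ones. The labeled values lie below the unlabeled ones, while 21.3% of single genes tested had levels that did not overlap between the groups. The sums of fibroblast and of epicardial and mesothelial markers separated the groups as well, while the other marker sums overlapped between them. Fibroblast markers summed to 38801.5, 39307 and 42725 CPM relative to counted reads in the labeled libraries against 31512 and 35325 in the unlabeled ones, with 8 of 10 markers higher in edgeR's fit and 0 of 10 past its adjusted threshold. Epicardial and mesothelial markers summed to 3.81, 5.02 and 5.93 against 0.543 and 1.00, and each unlabeled sum was 1 read. Of the endothelial markers 0 of 5 were higher. The part of these marker groups in the ratio was not tested. No test was run on this sum, whose largest parts are Tef, Nr1d2 and Clock.

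Newly made RNA was seen for every member. The T>C conversion rate of the labeled libraries was raised over the unlabeled ones in 10 of 10 members by the beta-binomial test at an unadjusted p below 0.05, and 94.6% of the 19240 intervals tested passed as well. The p-values ran from 1.36e-06 for Clock to 0.00749 for Cry1. In 10 of 10 members each labeled library lay above both unlabeled libraries, against 89.2% of all intervals. In the unlabeled libraries 6 members (Per1, Per2, Per3, Cry1, Nr1d1 and Dbp) had no conversion at all. With 3 conversions taken as the limit of 0, this allows a rate of up to 0.00144 for Per3, at 2077 covered T positions. For Cry1, at 330, it allows up to 0.00909. This limit is not that of the Clopper-Pearson intervals shown for single libraries.

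Rates of the 3 members with most reads were close to each other. Clock had 0.0367, 0.0389 and 0.0321 in labeled replicates 1, 2 and 3 (0.0359 ± 0.00345, SD, n = 3) on 9153 covered T positions. Tef had 0.0378, 0.0435 and 0.0348 (0.0387 ± 0.00442). Nr1d2 had 0.0356, 0.0417 and 0.0530 (0.0434 ± 0.00882). For comparison, 3156 deep intervals, those that cover 1000 or more T positions in all 5 libraries, centred on a median of 0.0390 and quartiles of 0.0349 and 0.0424, and Clock and Tef lay within the quartiles. Nr1d2 lay just above them by its mean, but within them by its pooled rate of 0.0394 or without labeled replicate 3 (0.0387). Clock was below Tef in 3 of 3 labeled libraries, with overlapping 95% Clopper-Pearson intervals in each.

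Nr1d1 had lower rates than the 3 members with most reads. It was at 0.0152, 0.0336 and 0.0235 in the labeled libraries (0.0241 ± 0.00922, SD, n = 3), from 3, 33 and 8 conversions on 197, 981 and 341 covered T positions. It lay below Nr1d2, Tef and Clock in 3 of 3 labeled libraries, and the Clopper-Pearson intervals overlapped in each case. Over the pooled labeled libraries the rate was 0.0290 for Nr1d1 and 0.0283 for Cry2, 0.0251 for Per2 and 0.0223 for Per1. The labeled library with the lowest Nr1d1 level, replicate 1, also had its lowest rate. Of 82 labeled Nr1d1 reads, 35.4% carried a conversion, against 59.1% of 264 for Nr1d2 and 51.5% of 443 for Clock. Reads differ in how many T positions they cover, so these shares do not compare genes by rate.

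Per3 had rates of 0.0464, 0.0368 and 0.0309 (0.0380 ± 0.00782, SD, n = 3), with 56 conversions on 1301 covered T positions over the 3 labeled libraries and none on 2077 without S4U. Dbp had 0.0353, 0.0229 and 0.0667 (0.0416 ± 0.0226) and Cry2 had 0.0226, 0.0216 and 0.0539 (0.0327 ± 0.0183). Labeled replicate 3, the shallowest library, was highest in both, from 8 and 9 conversions. Per1 (0.0117, 0.0357 and 0.0652), Per2 (0.0205, 0.0198 and 0.0588) and Cry1 (0.0161, 0.0217 and 0.0976) rested on 8 to 11 conversions each. Their SDs of 0.0223 to 0.0455 stand against means of 0.0331 to 0.0451, and at this depth their rates cannot be ranked against those of the other members.

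**Figure D4:**
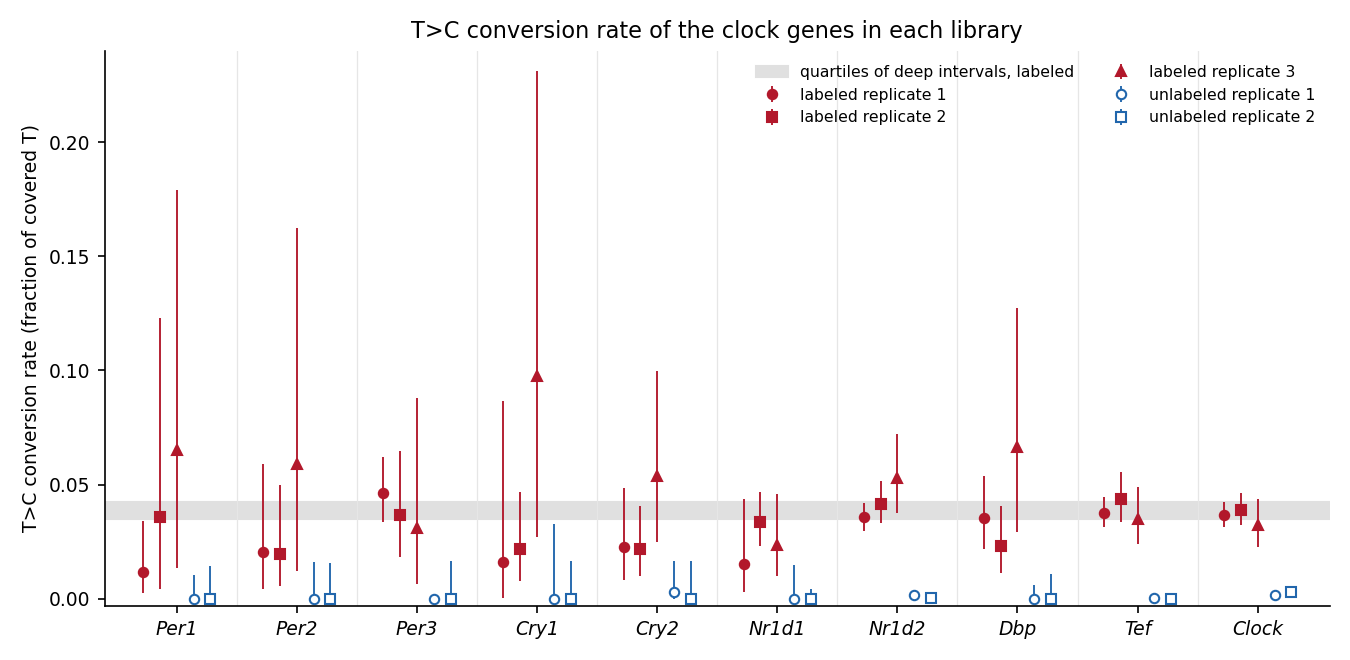
T>C conversion rate of each clock gene as a fraction of covered T positions in the 3 labeled (filled) and 2 unlabeled (open) libraries, with 95% Clopper-Pearson intervals, over a band for the quartiles (0.0349 and 0.0424) of deeply covered intervals in the labeled libraries. Labeled values of every gene lie above the unlabeled ones, and intervals are wide for Per1, Per2 and Cry1.

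Clock was the member with most conversions in the absence of S4U, 12 of 6752 and 7 of 2495 covered T positions in unlabeled replicates 1 and 2. Its tables list a second interval of 4855 bases within the 6831 bases used. The 1976 bases that only the longer interval holds had 11 conversions on 3160 and 5 on 1279 covered T positions without S4U, while the shorter interval had 1 on 3592 and 2 on 1216. With S4U the rates of the same stretches were 0.0380, 0.0414 and 0.0348 against 0.0355, 0.0364 and 0.0270. Most unlabeled conversions thus lay in the stretch at the far 3′ end, which also held 51.4%, 54.2% and 67.9% of the Clock reads in the labeled libraries.

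Of 26 other genes of the clock pathway, 25 had reads and 21 were tested for reads. Of these, 10 were higher and 11 lower in the labeled libraries, and none passed the adjusted threshold in edgeR. An unadjusted p below 0.05 in edgeR was found for 2 of the 21, against 5.97% of all genes tested. The median log2 fold change was -0.09, against 0.02 for all genes tested. Wee1, a kinase that inhibits entry into mitosis and a target of CLOCK and BMAL1, was at 7.61, 17.6 and 11.9 CPM relative to counted reads in the labeled and 23.9 and 40.2 in the unlabeled libraries, and the groups did not overlap (log2 fold change -1.30, SE 0.49, edgeR adjusted p = 0.779). Hlf, the PAR bZIP relative of Dbp and Tef, was at 21.6, 18.4 and 15.8 against 29.8 and 42.2, again without overlap (-0.85, SE 0.35, edgeR adjusted p = 0.811). Levels did not overlap between the groups in 4 of the 21 genes (19.0%), Wee1, Hlf and Nono lower and Csnk2a1 higher with S4U, against 21.3% of all genes tested. Nono was named after its value was seen. Nampt, which makes a precursor of NAD+, had a log2 fold change of -0.65 (SE 0.40), which was -0.099 without unlabeled replicate 1. In a fit with the replicate number as a block, which left 1 residual degree of freedom, Wee1 and Nampt passed the adjusted threshold. No source pairs the libraries by number. On simulated counts that fit recovered 0 of 200 genes, but these counts held no replicate effect. The simulation thus does not tell how the fit performs on these libraries. Of the casein kinases, Csnk1e (0.28, SE 0.49) and Csnk2a1 (0.35, SE 0.24) had 2 of the 3 largest positive values.

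Bmal1 (Arntl in the tables), the partner of CLOCK, had the largest positive value of the 21 other clock genes with 0.47 (SE 0.37). Its levels were 38.7, 27.6 and 25.7 against 19.5 and 28.1. Npas2, the paralog of CLOCK, had 0.19 (SE 0.50), at 36.2, 21.8 and 19.8 against 35.8 and 12.0. Bmal1 was higher in labeled but lower in unlabeled replicate 1 than in replicate 2. Npas2 was highest in both replicate 1 libraries, where Nr1d1 was lowest, and lower in the other 3. Between replicates 1 and 2 of both groups, Btrc was the 1 of 21 other clock genes at least 2-fold higher in replicate 2 (8.82% of all genes tested), and Csnk1e, Noct and Timeless were the 3 of 21 at least 2-fold lower (5.11%). These were named after their values were seen. Of the Btrc interval 23.8% lies in an annotated UTR, and a long noncoding RNA is annotated over it on the same strand, so its reads may not all be of Btrc.

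T>C rates were raised in 22 of the 23 other clock genes with a covered T position in every library, against 94.6% of all intervals tested. The exception was Bmal2 (Arntl2), also named after its value was seen, with 4 conversions on 455 covered T positions in the labeled and 2 on 228 in the unlabeled libraries. Bmal1 had labeled rates of 0.0414, 0.04995 and 0.0455 (0.0456 ± 0.00428, SD, n = 3) and Npas2 had 0.0354, 0.0496 and 0.0593 (0.0481 ± 0.0120). Both exceeded Clock in labeled replicates 2 and 3, and Bmal1 did so in labeled replicate 1 as well. The 95% Clopper-Pearson intervals overlapped those of Clock in each case. Neither gene had a conversion in the unlabeled libraries.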

How the data were processed

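SLAMseq libraries of CF, 3 labeled with S4U and 2 unlabeled, were analysed. The authors moved the unique molecular identifiers into the read names, ran SLAM-DUNK 0.4.3 on the 3′ end reads against mm39, took out duplicates and counted on 3′ UTR intervals whose origin is not given in the sources used here. The authors deposited read counts, covered T counts and conversion counts per interval, with no normalization applied to these counts, and a CPM beside them. In the deposited tables the conversion rate is the fraction of covered T positions that were converted. The deposited CPM divides reads by a number per library (10975173 to 14616278) that exceeds the reads counted on the intervals, so CPM relative to counted reads was computed beside it.

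Each table has 97442 rows and 40428 distinct intervals, and repeated rows were used once. Where intervals of a gene tied, the longest was taken. T content of 23 of 23 intervals of the members matched GRCm39. A two-sided likelihood-ratio test of a beta-binomial model compared T>C rates on intervals with at least 1 covered T position in every library. The study's methods name a beta-binomial test and the removal of transcripts without T detection to find raised rates, without naming a likelihood ratio or a two-sided p. For reads, all genes entered a quasi-likelihood test in edgeR (TMM, filterByExpr, Benjamini-Hochberg adjustment). Both fits ran on the whole table and the members' values were read from them. Levels carry exact Poisson and rates Clopper-Pearson intervals at 95%. On simulated data, 81.5% of 200 intervals with a 4-fold rate were recovered among 3000, and 11.2% of unchanged ones were called, so the T>C test is liberal. Among 9666 genes, 200 of them simulated with a log2 difference of 2, edgeR found 73 with 4 false calls, and among 13902 with 200 such genes DESeq2 found 112 with 16. The Python packages (Python 3.11.15) were pandas 2.3.3, numpy 2.4.6, numba 0.67.0, scipy 1.17.1 and matplotlib 3.10.9. The R packages (R 4.3.3) were DESeq2 1.42.0, limma 3.58.1 and edgeR 4.0.16.

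The members and the gene lists were chosen with earlier results of these data known. The genes named are all members, Bmal1, Npas2 and, of the other clock genes, those past the adjusted threshold or else the 3 with the largest rise and the 3 with the largest fall of reads. Other intervals of a member were considered where they held at least 20 reads. Alternatives were other minimums of covered T positions, Benjamini-Hochberg adjustment of T>C tests, 1 interval per gene, limma on log odds with a pseudocount of 0.5, other size factors, DESeq2, other filters, summed intervals, the library size of the deposited CPM, the replicate number as a block and each library left out in turn. A 3-fold in place of the 2-fold limit between replicates was added after the data were seen.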

Additional observations from a re-analysis of the deposited data

How the results depend on the processing

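No member with an adjusted p changed in reads, and all members tested had raised T>C rates, under each alternative run, though fewer could be tested at higher coverage (6 of 6 members at a minimum of 100 covered T positions per library, 1 of 1 at 1000). The number of intervals with a raised rate was 3154 of 3156 at a minimum of 1000 covered T positions and 10641 of 11179 with 1 interval per gene, as fewer were tested, and 17056 to 18632 with 1 library left out. DESeq2 called 13 genes higher and 5 lower. With the replicate number as a block, 528 genes were higher and 618 lower in edgeR but 0 members. This fit left 1 residual degree of freedom, so the 0 members carry little. On simulated counts it recovered 0 of 200 genes, but these counts held no replicate effect and do not tell its power here. In the block fit Wee1 reached an adjusted p of 0.00195 and Nampt 0.0155, Dbp turned to 0.020 and Clock to 0.029. Across genes, deviations from group means correlated at 0.78 between replicates 1 and at 0.64 between replicates 2. Between labeled replicate 3 and unlabeled replicate 2 the value was 0.48. Deviations within a group cancel out, and those of the 2 unlabeled libraries mirror each other, so these values are not independent. No source pairs these libraries, and only 2 numbers are shared. In limma on log odds with the replicate block, 18435 intervals and 10 members were raised.

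The log2 fold change of Cry1 turned to -0.060 in DESeq2, -0.0062 with summed intervals and -0.44 with the library size of the deposited CPM. That size also turned Nr1d1 to -0.29, Npas2 to -0.23, Csnk1e to -0.15 and Csnk2a1 to -0.12, with the median of all genes at -0.43. With 1 library left out the log2 fold changes that turned sign ranged from -0.32 to 1.15 for Npas2, -0.19 to 1.02 for Csnk1e, -0.61 to 1.99 for Nr1d1, -0.55 to 0.036 for Tef, -0.25 to 0.21 for Clock, -0.44 to 0.026 for Dbp and -1.54 to 0.80 for Per3. Those that kept their sign ranged from 0.10 to 1.28 for Cry1, 0.41 to 1.00 for Cry2, -1.32 to -0.30 for Per1, -0.66 to -0.11 for Nr1d2, 0.17 to 0.78 for Bmal1, -1.71 to -0.83 for Wee1, -1.13 to -0.54 for Hlf, -1.04 to -0.099 for Nampt and 0.30 to 0.40 for Csnk2a1. Without unlabeled replicate 2, the only unlabeled library left was the one with the highest Per3 level, and the spread came from the labeled libraries alone. The log2 ratio of output and feedback to activator reads had a mean of 0.39 in the labeled and 0.77 in the unlabeled libraries. Without Dbp the means were 0.26 and 0.64. At a 3-fold limit Nr1d1 and Cry1 remained higher in replicate 2 of both groups and no member was lower. The causes were not tested. The number of reads, as low as 2 per library for Per1, Per2 and Cry1, limits what can be seen.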
